A study of Mus musculus with 17 samples.

Results

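The genes described here are 10 genes that mark monocytes and macrophages recruited into an injured or lipid-loaded liver: Trem2, Gpnmb, Spp1, Cd9, Chil3, Itgam, Itgax, Ly6c2, Lyz2 and Mmp12. They were chosen by name, with earlier results of these data known. Their symbols sit on 11 of the 48440 gene rows of the deposited table of normalized counts, because Itgam appears on a second row. All 10 genes passed the filter on low values, a mean of at least 10 normalized counts, and only the second Itgam row fell under it.

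The study sequenced polyadenylated liver RNA from mice in 3 groups, 17 libraries in all. Its title ties the microRNA miR-29 to ageing, and the design sets a difference with age beside a difference with a miR-29 transgene. Wild-type B6 mice, the common black inbred strain, were 2 months old (6 libraries, WT) or 2 years old (5 libraries), and miR-29 transgenic mice (TG) were 2 months old (6 libraries). The promoter that drives the transgene, the miR-29 member it carries and the strain background of the transgenic mice are not given in the sources used here. Batch A was made with an Illumina TruSeq polyA kit and sequenced at the University of North Carolina, and batch B was made with NEBNext Ultra II Directional reagents and sequenced at Cornell University. Batch A held 10 libraries, of which 4 were young wild type, 3 aged wild type and 3 transgenic. Batch B held 2 young wild-type, 2 aged wild-type and 3 transgenic libraries, all male, while batch A held 5 males and 5 females, among them the only transgenic female. The normalized counts of a library summed to between 28077001 and 44543936, and read depth is unknown. The labels do not say whether each library came from a separate animal, so the p-values measure the spread between libraries, which may be technical.

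Resident Kupffer cells are the liver's own macrophages, and monocytes from the blood replace or join them when the tissue is damaged. Incoming monocytes carry Ly6C and the integrin CD11b, and in fatty or fibrotic liver some of them take on a lipid-associated state in which the receptor TREM2 and the proteins GPNMB, osteopontin and CD9 are prominent. Several of these genes are not specific: neutrophils also express Itgam and Lyz2, neutrophil precursors express Chil3, bile duct cells secrete osteopontin, and CD9 is found on many cell types. In bulk liver, fewer cells of a type and less RNA per cell cannot be told apart.

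The mature miR-29 sequences are shown first because the transgene concerns them. They are from RefSeq for GRCm38.p6, written 5′ to 3′, with the seed (bases 2 to 8) in capitals. All 3 share it.
miR-29a-3p: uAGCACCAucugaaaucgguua
miR-29b-3p: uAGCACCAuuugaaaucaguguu
miR-29c-3p: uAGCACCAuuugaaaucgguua
miR-29a-3p lies at chr6:31062673-31062694 on the minus strand and miR-29c-3p at chr1:195037600-195037621 on the plus strand. miR-29b-3p is encoded at chr6:31063025-31063047 (minus) and again at chr1:195037091-195037113 (plus). The DNA site that pairs with this seed, TGGTGCT, was found in the longest annotated 3′ UTR of 0 of the 10 genes, against 13.2% of the 20846 mouse genes with a 3′ UTR of at least 30 bases.

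The next sequences are the 250 bases upstream of the RefSeq start site (GRCm38.p6) of the 3 genes that differed between transgenic and wild-type livers, followed by Ly6c2, whose difference was unlike in the 2 batches. Capitals mark GAGGAAG or its reverse complement, the core bound by PU.1, the factor that directs myeloid differentiation.
Chil3 chr3:106167565-106167814 minus strand: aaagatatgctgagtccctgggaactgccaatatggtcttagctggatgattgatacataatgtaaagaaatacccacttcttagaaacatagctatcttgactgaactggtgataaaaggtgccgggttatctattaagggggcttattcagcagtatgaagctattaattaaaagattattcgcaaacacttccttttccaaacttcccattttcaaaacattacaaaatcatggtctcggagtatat
Itgam chr7:128062390-128062639 plus strand: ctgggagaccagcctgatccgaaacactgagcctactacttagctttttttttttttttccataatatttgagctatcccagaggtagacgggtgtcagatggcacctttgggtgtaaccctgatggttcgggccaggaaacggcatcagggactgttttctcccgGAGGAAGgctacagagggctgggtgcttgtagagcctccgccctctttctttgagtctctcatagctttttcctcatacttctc
Spp1 chr5:104434861-104435110 plus strand: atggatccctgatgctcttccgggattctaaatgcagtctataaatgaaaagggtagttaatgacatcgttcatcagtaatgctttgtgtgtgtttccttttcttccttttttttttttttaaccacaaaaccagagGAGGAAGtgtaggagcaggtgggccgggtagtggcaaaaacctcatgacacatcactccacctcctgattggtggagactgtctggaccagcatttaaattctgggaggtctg
Ly6c2 chr15:75111972-75112221 minus strand: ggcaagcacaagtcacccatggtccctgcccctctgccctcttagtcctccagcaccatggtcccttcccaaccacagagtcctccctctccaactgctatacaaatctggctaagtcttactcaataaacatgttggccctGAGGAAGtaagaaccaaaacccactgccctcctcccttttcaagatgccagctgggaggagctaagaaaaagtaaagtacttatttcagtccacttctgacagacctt
The core was present in Itgam, Spp1 and Ly6c2 and absent from the Chil3 window. It was searched on both strands and lies in 10.6% of the 32851 windows of this length, and among the 10 genes it also occurred in a window of Trem2 and of Mmp12. Spp1, Ly6c2 and Mmp12 have 2 windows each. The AP-1 letters TGANTCA (6.75% of all windows) were in windows of Trem2, Itgax and Mmp12, the C/EBP letters TTGCNNAA (9.56%) in windows of Spp1 and Mmp12, and the E-box CACGTG (6.02%) in none of the 10. These matches are descriptions of the letters only.

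Per kb of exon, the 10 genes fell into an abundant and a scarce group in young wild-type liver. The normalized count per kb of Lyz2 had a median of 1818 (1147 to 1989 over 6 libraries), that of Spp1 1289 (855 to 1947) and that of Cd9 318 (135 to 428). The ranges of Lyz2 and Spp1 overlapped, and Cd9 lay below both. The other 7 genes had median levels per kb between 1.31 (Gpnmb) and 6.19 (Itgax), and none of their libraries passed 27.1. The ranges of these 7 overlapped for every pair but one, as Gpnmb (0.545 to 1.76) ended below Itgam (3.05 to 10.8). In the transgenic livers Chil3, with a median of 666 per kb (40.0 to 3096), stood beside Lyz2 (2409), Spp1 (617) and Cd9 (419), and its range overlapped all 3 of theirs. In the aged wild-type livers the first 3 places were unchanged, at median levels per kb of 3101 for Lyz2, 941 for Spp1 and 436 for Cd9, and Chil3 came next at 21.1.

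The first comparison asked how the 10 genes differed between transgenic and wild-type livers of the same young age. Chil3 and Itgam rose and Spp1 fell, and the other 7 did not pass the test, which was limma on log2(normalized count + 1) with batch and sex as terms and a Benjamini-Hochberg adjusted p under 0.05 over 14588 genes. Among all genes tested, 2.89% were called higher and 3.83% lower, beside 2 higher and 1 lower of the 10. The 10 were chosen with earlier results of these data known, so this share does not test the set, and it rests on few genes. The median log2 fold change of the 10 was 0.93, beside 0.0058 over all genes, and 7 of the 10 were positive. Every transgenic library lay above every young wild-type library for Gpnmb and Chil3 and below every one for Spp1, which holds for 1.11% and 1.84% of all genes tested.

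**Figure D1:**
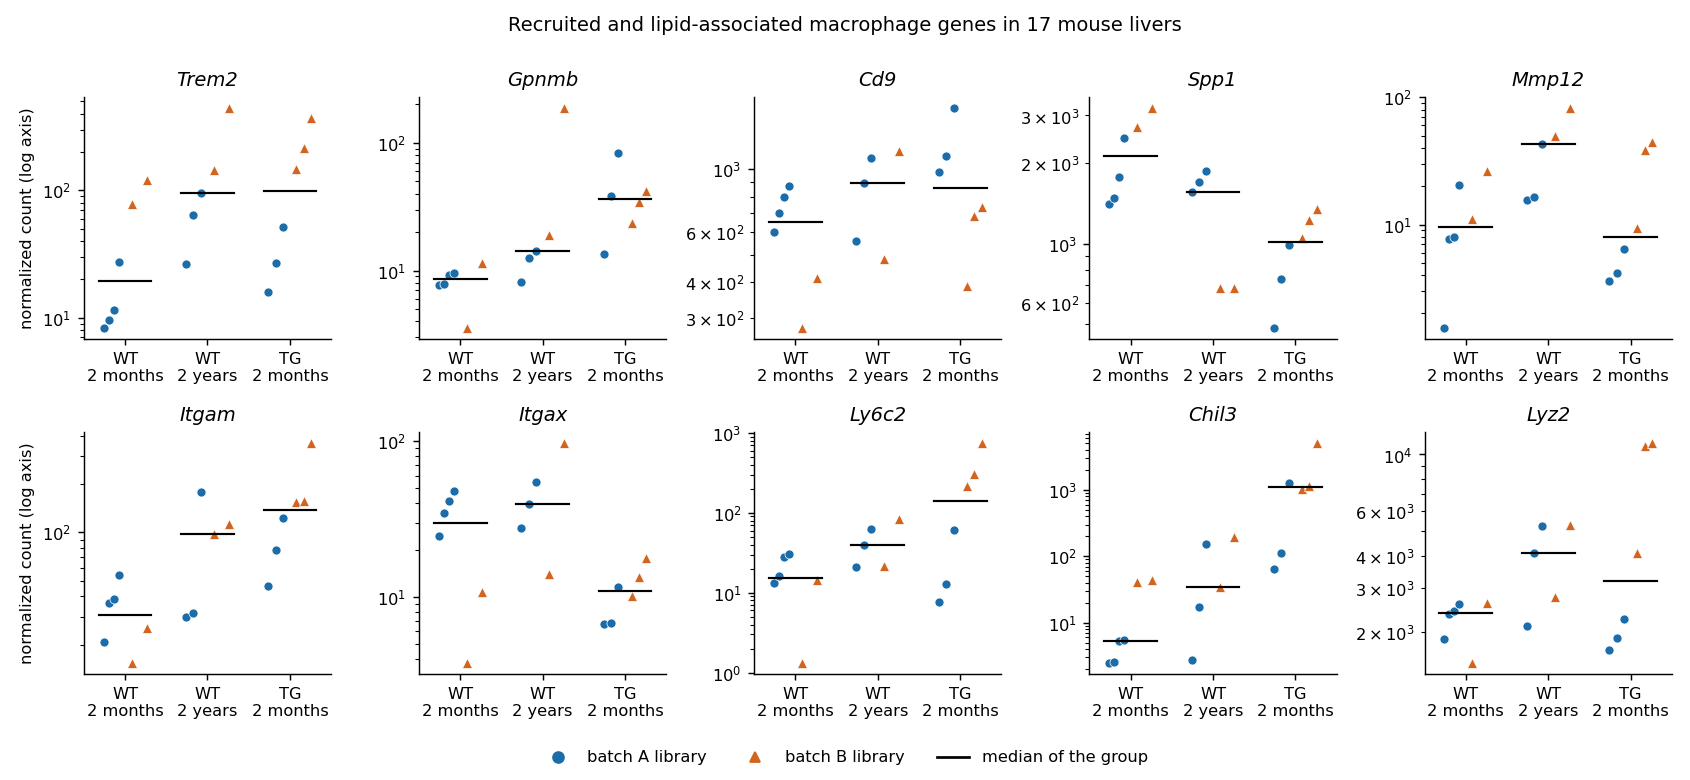
Normalized count of each of the 10 genes on a log axis in every library, by group (wild type at 2 months, wild type at 2 years, transgenic at 2 months). Circles are batch A libraries, triangles batch B libraries, and the bar is the group's median; Chil3 in the transgenic group reaches 5052, and the triangles of Ly6c2 and Lyz2 in that group lie above its circles.

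Chil3 encodes Ym1, a secreted chitinase-like protein made by alternatively activated mouse macrophages and by neutrophil precursors (chr3:106147554-106167564, GENCODE M21 on GRCm38). Its normalized counts ran from 2.44 to 44.3 with a median of 5.32 in young wild type, and from 65.3 to 5052 with a median of 1087 in transgenic livers. No transgenic library overlapped the young wild type, and 4 of the 6 stood at 1032 or above. In batch A the only transgenic female, library 3, was at 1283 and the transgenic males at 65.3 and 111. Among the transgenic batch A libraries, that female was also highest for Gpnmb (83.5) and Itgam (122) and lowest for Spp1 (485). The log2 fold change was 5.51 ± 0.85 (SE, adjusted p = 0.000792, limma), with group means of 16.9 ± 20.1 and 1448 ± 1843 (SD, n = 6 and 6).
Batch A alone gave 5.48 (adjusted p = 0.0657, limma) and batch B alone 5.37 (adjusted p = 0.0369, limma), although the young wild-type level itself differed between batches, 2.44 to 5.40 in A and 41.2 to 44.3 in B. The call held without each library in turn (4.70 to 5.96).

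Itgam encodes CD11b, the chain that pairs with CD18 to form the complement receptor Mac-1 of monocytes, macrophages and neutrophils (chr7:128062640-128118491). It ran from 15.3 to 54.1 normalized counts with a median of 30.8 in young wild type, and from 46.6 to 359 with a median of 138 in transgenic livers. The lowest transgenic library lay below 1 of the wild-type libraries, and the other 5 lay above all 6. The log2 fold change was 1.97 ± 0.51 (adjusted p = 0.0284, limma), 1.05 in batch A (adjusted p = 0.419, limma) and 3.31 in batch B (adjusted p = 0.0334, limma), and the test of the difference between batches gave 2.26 ± 0.91 (adjusted p = 0.250, limma).
The call was lost on leaving out young wild-type library 2, 5 or 6 or transgenic library 3 or 5 (1.63 to 2.26 over all libraries left out), with library weights (1.55), and with no filter on low values (1.97).
The second Itgam row, named Gm49368 in GENCODE M21, overlaps the same locus (chr7:128062683-128128160) and shares 67.2% of the 31-base words of Itgam. Its mean was 2.52 normalized counts, with 0 in 5 of 6 young wild-type libraries and up to 22.0 in the transgenic group (exact two-sided permutation p = 0.167 within batch and sex, 180 arrangements). How reads were divided between the rows is not given in the sources used here.

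Spp1 encodes osteopontin, a secreted ligand of integrins and CD44 (chr5:104435118-104441050). It ran from 1409 to 3208 normalized counts with a median of 2124 in young wild type and from 485 to 1343 with a median of 1017 in transgenic livers, with no overlap. Spp1 thus moved opposite to Chil3 and Itgam, with a log2 fold change of -1.21 ± 0.33 (adjusted p = 0.0372, limma), -1.36 in batch A (adjusted p = 0.0284, limma) and -1.3 in batch B (adjusted p = 0.0386, limma). The adjusted p lay just under the threshold and passed it on leaving out any of 9 of the 17 libraries: young wild type 2, 4, 5 or 6, or transgenic 1, 2, 3, 5 or 6 (-1.33 to -0.96). It also passed 0.05 with no filter on low values (-1.21), in males alone (-1.19), with library weights (-0.70) and with the replicate number as a block (-1.18).
Bile duct markers, a known source of osteopontin, were measured beside it. Of 8 cholangiocyte markers tested 0 were called. Sox9 (-0.82 ± 0.38, adjusted p = 0.232, limma, -1.62 in A and 0.20 in B) and Krt7 (0.52 ± 0.34, adjusted p = 0.420, limma) had the smallest p. The summed level of the 9 listed was 579 to 1064 normalized counts in young wild type and 603 to 1178 in transgenic livers. These ranges overlap almost completely. What share of Spp1 came from bile duct cells was not tested.

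Trem2, Gpnmb and Cd9, the surface proteins of the lipid-associated state, were not called. Trem2, a lipid-sensing receptor (chr17:48346401-48354147), ran from 8.31 to 120 with a median of 19.6 in young wild type and from 16.0 to 372 with a median of 99.7 in transgenic livers. In both groups the batch B libraries stood above all batch A libraries, at 77.9 and 120 against 8.31 to 27.6 in wild type and 148 to 372 against 16.0 to 51.7 in transgenic livers. The fold change within batch was smaller than the gap of the medians: 1.14 ± 0.42 (adjusted p = 0.118, limma), 0.99 in batch A and 1.23 in batch B.
Gpnmb, a transmembrane glycoprotein of lipid-handling phagocytes (chr6:49036546-49070929), ran from 3.55 to 11.5 with a median of 8.52 in young wild type and from 13.4 to 83.5 with a median of 36.1 in transgenic livers. The groups did not overlap, the fold changes were alike in the batches (2.00 in A, 2.15 in B), and the estimate of 1.91 ± 0.62 had an adjusted p of 0.0770 (limma). That p depended on the spread of the aged group, which shares the fit: without aged library 4, where Gpnmb was 188, it was 0.00808 (limma, 2.02), and with only the 2 groups compared it was 0.0107 (limma, 2.09).
Cd9, a tetraspanin (chr6:125460266-125494791), ran from 276 to 875 in young wild type and from 387 to 1644 in transgenic livers, with medians of 651 and 856. The groups overlapped, and batch A lay above batch B in both. The values were 600 to 875 in A against 276 and 415 in B in young wild type, and 973 to 1644 against 387 to 738 in transgenic livers. The log2 fold change was 0.65 ± 0.27 (adjusted p = 0.160, limma; 0.65 in A and 0.77 in B).

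Ly6c2, Lyz2 and Itgax gave unlike differences in the 2 batches. Ly6c2 encodes a form of the Ly6C antigen of inflammatory monocytes (chr15:75108158-75111970). It ran from 1.3 to 30.5 normalized counts with a median of 15.5 in young wild type, and from 7.65 to 747 with a median of 140 in transgenic livers. The 3 batch A transgenic libraries (7.65 to 60.9) spanned the batch A wild type (13.3 to 30.5), while those of batch B (219 to 747) stood far above the 2 wild-type libraries of batch B (1.3 and 14.5).
For Ly6c2 the log2 fold change was -0.02 ± 0.63 within batch A, 5.95 ± 0.97 within batch B, and 2.52 ± 0.91 (adjusted p = 0.114, limma) over both. The difference between batches was 5.97 ± 1.17 (adjusted p = 0.0414, limma), and Ly6c2 was the only one of the 10 called in that test, which called 0.50% of all genes. That call was lost without aged library 2, without young wild-type library 1, 2, 3, 4 or 6, and without transgenic library 2, 4 or 5. The lowest wild-type value, 1.3, is 1 of the 2 batch B controls.
Its neighbour Ly6c1, whose coding sequence is 92.8% identical, rose by 1.65 ± 0.43 (adjusted p = 0.0301, limma, 1.81 in A and 1.41 in B). Ly6c1 and Ly6c2 thus did not show the same batch pattern. Ly6c2 shares 21.4% of its 31-base words with Ly6c1, and reads that fit both are uncertain.

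Lyz2 encodes lysozyme M, made by monocytes, macrophages and neutrophils (chr10:117277331-117282321). It ran from 1509 to 2618 with a median of 2392 in young wild type and from 1711 to 11091 with a median of 3170 in transgenic livers. The 3 transgenic libraries of batch A (1711 to 2249) lay within the wild-type range, and the 3 of batch B (4092 to 11091) lay above it. The fold change was 0.73 ± 0.41 (adjusted p = 0.327, limma), -0.25 in A and 1.99 in B, and the difference between batches 2.24 ± 0.61 had an adjusted p of 0.0996 (limma).
Its near copy Lyz1, 95.1% identical over the coding sequence, stayed between 0 and 11.8 normalized counts in all libraries.
Itgax encodes CD11c, an integrin chain of dendritic cells and some macrophages (chr7:128129547-128150657). In batch A it ran from 24.6 to 47.6 in young wild type and from 6.71 to 11.6 in transgenic livers, without overlap, and fell by 1.95 on the log2 scale (SE 0.33, adjusted p = 0.0215 in batch A alone, limma). In batch B the wild type was already low, at 3.74 and 10.8, and the transgenic libraries ran from 10.2 to 17.9 (0.95 ± 0.88). Over both batches Itgax gave -0.79 ± 0.56 (adjusted p = 0.463, limma), and the difference between batches 2.90 ± 0.89 had an adjusted p of 0.136 (limma).
Itgad, the related CD11d chain, was very low in every group. It was listed at 0 in all 6 transgenic libraries and at 0 to 7.63 in wild type, with medians of 0.22 (young) and 0.39 (aged). Chil4, the near copy of Chil3, was listed at 0 in every library.

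Mmp12, the macrophage elastase (chr9:7344381-7369499), was not called with the transgene. It ran from 1.54 to 26.6 normalized counts with a median of 9.53 in young wild type and from 3.63 to 44.6 with a median of 7.93 in transgenic livers, so the groups overlapped throughout. The log2 fold change was -0.11 ± 0.54 (adjusted p = 0.938, limma; 95% interval -1.24 to 1.03), -0.61 in batch A and 0.54 in batch B.

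**Figure D2:**
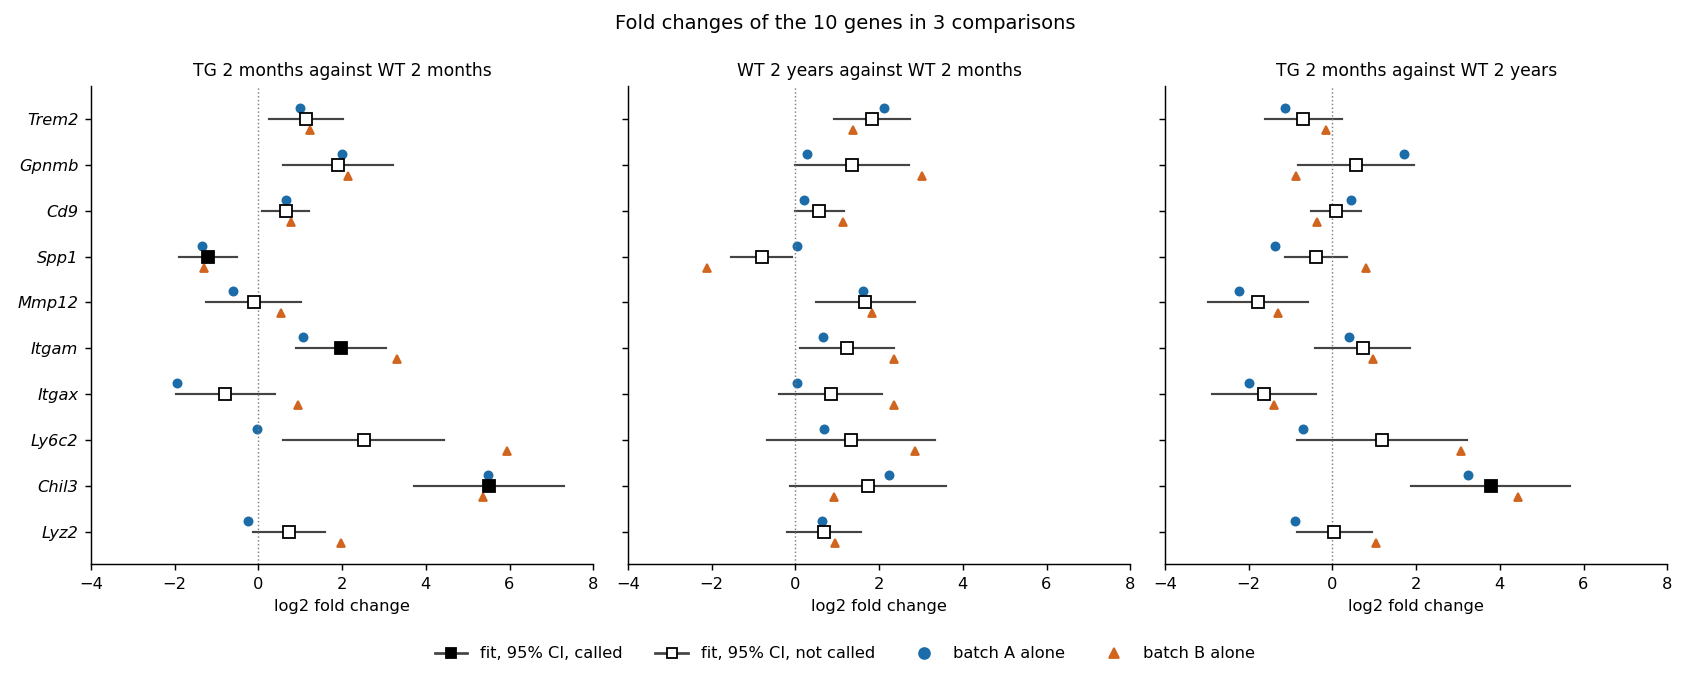
Log2 fold change of each of the 10 genes in 3 comparisons, with the 95% confidence interval of the fit over all libraries (squares, filled where called) and the estimates from batch A alone (circles) and batch B alone (triangles). With the transgene, Chil3 (5.51), Itgam (1.97) and Spp1 (-1.21) are filled; with age no square is filled, and 9 of 10 lie to the right of 0.

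The second comparison asked how the same genes differed between livers of 2-year-old and 2-month-old wild-type mice. None of the 10 was called by limma, with 14 of 14588 genes (0.0960%) called higher and 7 (0.0480%) lower over the whole table. At an unadjusted p under 0.05, 3 were higher and 1 lower, where 4.56% of all genes were higher and 4.17% lower, and 9 of the 10 fold changes were positive, with a median of 1.28 beside -0.0027 over all genes. None of the 10 had all aged libraries above all young ones, a pattern that 0.350% of genes showed. The authors' deposited table, made with DESeq2, called 280 of 15814 genes and 2 of the 10, Trem2 (log2 fold change 1.96, adjusted p = 0.00324) and Chil3 (2.47, adjusted p = 0.0381).

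Trem2 had the smallest p of the 10 with age. Its aged libraries 1 to 3, of batch A, were at 26.5, 95.1 and 63.8 normalized counts, and libraries 4 and 5, of batch B, at 144 and 447. Within each batch every aged library lay above every young one except library 1, which was just under the highest young value of batch A, 27.6. The log2 fold change was 1.83 ± 0.43 (unadjusted p = 0.000593, adjusted p = 0.125, limma), 2.13 in batch A and 1.38 in batch B, and it lay between 1.5 and 2.15 without each library in turn.
Mmp12 was at 16.6, 43.1 and 15.5 in aged batch A libraries and at 49.98 and 82.9 in those of batch B. Both batch B values exceeded the young batch B libraries (11.1 and 26.6), and in batch A 1 young library, at 20.5, lay above 2 aged ones. The log2 fold change was 1.67 ± 0.56 (adjusted p = 0.432, limma), 1.62 in A and 1.84 in B.
Itgam was at 31.8, 29.8 and 179 in batch A and at 98.2 and 113 in batch B of the aged group. Library 3 and the batch B pair were high, and libraries 1 and 2 lay inside the young range (1.24 ± 0.53, adjusted p = 0.544, limma; 0.66 in A and 2.35 in B).

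Spp1 was at 1868, 1551 and 1698 in the aged batch A libraries and at 683 in both aged batch B libraries. The batch A values lay inside the young batch A range (1409 to 2478), and the batch B values lay far under the young batch B pair (2708 and 3208). The fold change was 0.03 in batch A and -2.11 in batch B, and -0.81 ± 0.34 over both (adjusted p = 0.545, limma). The test of that difference gave -2.13 ± 0.38 (adjusted p = 0.0583, limma), and none of the 10 was called in it, beside 0.0206% of all genes.
Chil3 was at 2.71, 17.3 and 152 in aged batch A libraries and at 195 and 34.4 in batch B, a spread that ran from the young level to well above it (1.73 ± 0.88, adjusted p = 0.583, limma; 2.23 in A and 0.93 in B).
Gpnmb was at 8.10, 14.1, 12.4, 188 and 19.0 in aged libraries 1 to 5. Library 4 alone stood apart, and the fold change was 0.29 in batch A and 3.03 in batch B, which holds that library (1.35 ± 0.65, adjusted p = 0.575, limma).

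The remaining 4 genes overlapped between the ages. Itgax was at 27.9, 55.1, 39.4, 13.96 and 97.5 in aged libraries 1 to 5 (0.85 ± 0.58). Ly6c2 was at 21.3, 39.1, 62.9, 21.3 and 84.0 (1.33 ± 0.95), all 5 above the young median of 15.5. Lyz2 was at 2112, 5223, 4081, 2763 and 5288 (0.68 ± 0.42), and 4 of the 5 exceeded the highest young library, 2618. Cd9 was at 892, 560.0, 1095, 1157 and 485 (0.57 ± 0.28), spread over and above the young range.

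The third comparison set the transgenic livers directly against the aged wild type. This contrast equals the difference between the transgene and the age estimates. Chil3 was higher in transgenic livers by 3.78 ± 0.90 (adjusted p = 0.0331, limma; 3.25 within A, 4.44 within B), the only one of the 10 called, where 0.713% of all genes were called higher and 1.84% lower. That call was lost without aged library 1, 2 or 5 or transgenic library 3 or 5 (2.91 to 4.99). The lowest aged Chil3 value was 2.71 and the highest 195, and 2 transgenic libraries, at 65.3 and 111, lay inside that range.
Mmp12 and Itgax pointed the other way, lower in transgenic than in aged livers by -1.78 ± 0.57 (adjusted p = 0.118, limma) and -1.63 ± 0.59 (adjusted p = 0.180, limma), and neither was called over both batches. With batch A alone the call changed genes: Itgax was called (-1.997, adjusted p = 0.0406, limma) and Chil3 was not (adjusted p = 0.304, limma). For Itgax, 4 of 5 aged libraries lay above the highest transgenic value of 17.9. The log2 fold changes of the transgene and of age shared the 6 young controls, and side by side they were 1.14 and 1.83 for Trem2, 1.91 and 1.35 for Gpnmb, and -1.21 and -0.81 for Spp1.

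Beyond the 10, some genes of a wider lipid-associated list differed with the transgene. Of 22 genes tested 3 rose and 1 fell, and the median fold change on the log2 scale was 0.44 (0.10 within A, 0.54 within B). Over all genes 2.89% were called higher and 3.83% lower, shares that also stand beside the counts of the lists below. Which cells these transcripts came from was not tested. The fatty acid transporter Cd36 rose by 2.17 ± 0.28 (adjusted p = 0.000252, limma), the lipid chaperone Fabp4 by 1.57 ± 0.35 (adjusted p = 0.0121, limma) and Vat1 by 0.69 ± 0.19 (adjusted p = 0.0361, limma). Plin2, a coat protein of lipid droplets that hepatocytes also make, fell by 1.84 (SE 0.39, adjusted p = 0.00865, limma). With age 1 of the 22 was called, and it was again Cd36 (1.87 ± 0.29, adjusted p = 0.0139, limma); the runner-up Vat1 was at 0.83 ± 0.20 (adjusted p = 0.125, limma).
The genes that act with TREM2 did not pass: 0 of 12 in either comparison, with medians of 0.18 for the transgene and 0.22 for age. The kinase Syk, which carries the signal of the receptor's adaptor, was at 0.94 ± 0.41 with the transgene (0.19 in A and 2.19 in B) and at 0.78 ± 0.42 with age, and Clu, a lipid-binding ligand, was at -0.55 ± 0.25 with the transgene.

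Partners of the integrins and of osteopontin gave 2 rises among 15 tested with the transgene and 0 calls with age. Itgb3, the integrin chain that binds osteopontin together with the alpha-v chain, rose by 1.66 ± 0.24 (adjusted p = 0.000567, limma; 1.82 in A and 1.44 in B), while its ligand Spp1 fell. Icam1, the endothelial ligand of CD11b/CD18, rose by 1.63 ± 0.30 (adjusted p = 0.00323, limma). Itgb2, the CD18 chain itself, was at 0.76 ± 0.36 and not called, -0.03 in batch A and 1.97 in batch B.
Among matrix metalloproteinases and their inhibitors, 4 of 16 rose and 2 fell with the transgene. The collagenase Mmp8 rose by 6.03 ± 0.90 and the gelatinase Mmp9 by 3.0 ± 0.74, both stored in neutrophil granules, and Mmp7 rose by 2.99 ± 0.61 and Mmp14 by 0.94 ± 0.24. Serpina1e and Serpina1c, hepatocyte genes of the antitrypsin family, fell by 5.38 and 1.80. Mmp12 was not among them. With age 0 of the 16 were called, and Mmp12 had the second smallest p after Serpina1e (-3.37 ± 0.77).
Of 9 tetraspanins, the family of Cd9, and of 5 monocyte recruitment ligands, 0 were called in either comparison. The growth factors Il34 (1.05 ± 0.34, adjusted p = 0.0747, limma) and Csf1 (0.80 ± 0.27, adjusted p = 0.0846, limma) had the smallest p among the ligands with the transgene, and Ccl7, Ccl8, Ccl12 and Csf2 fell under the filter. Among tetraspanins Tspan4 (0.96 ± 0.33) and Cd37 (1.04 ± 0.38) came first.

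Markers of other cell types moved with the results above. Of 14 neutrophil markers tested, 11 rose and 0 fell with the transgene, and their median fold change on the log2 scale was 4.93 (3.78 within A, 5.10 within B). S100a8, a subunit of calprotectin, rose by 5.14 ± 0.82, and the granule genes Mmp8 by 6.03 ± 0.90 and Ltf by 5.38 ± 1.05, close to the 5.51 of Chil3. The summed level of 15 neutrophil markers was 65.2 to 734 normalized counts in young wild type (median 153), 146 to 3867 in aged wild type (median 754) and 1230 to 54072 in transgenic livers (median 8644), where no library overlapped the young group. Ly6g and Fcnb, also on that list, were each at 0 in 8 of the 17 libraries. With age 0 of the 14 were called, 7 were higher at an unadjusted p under 0.05 (4.56% of all genes), and the median was 1.79.
Chil3 varied with S100a8 and S100a9 of these markers from library to library, and its correlations with the others are not given here. After removal of group, batch and sex, the genes most like Chil3 over the 17 libraries were S100a8 (residual r 0.88), Socs3 (0.87) and S100a9 (0.86). The libraries share batch and normalization, and batch was removed only as a shift common to all groups, so these correlations are descriptions. The aged libraries with the highest Chil3, 3 and 4, also had the highest neutrophil sums of that group, 3867 and 3531. In the transgenic group library 5 was highest in both (5052 and 54072), and libraries 1 and 2 were lowest in both. Between them the orders were opposite: Chil3 was 1283, 1143 and 1032 in libraries 3, 4 and 6, and the sums were 8152.5, 9136 and 28911. What share of Chil3, Itgam or Lyz2 came from neutrophils was not tested.

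**Figure D3:**
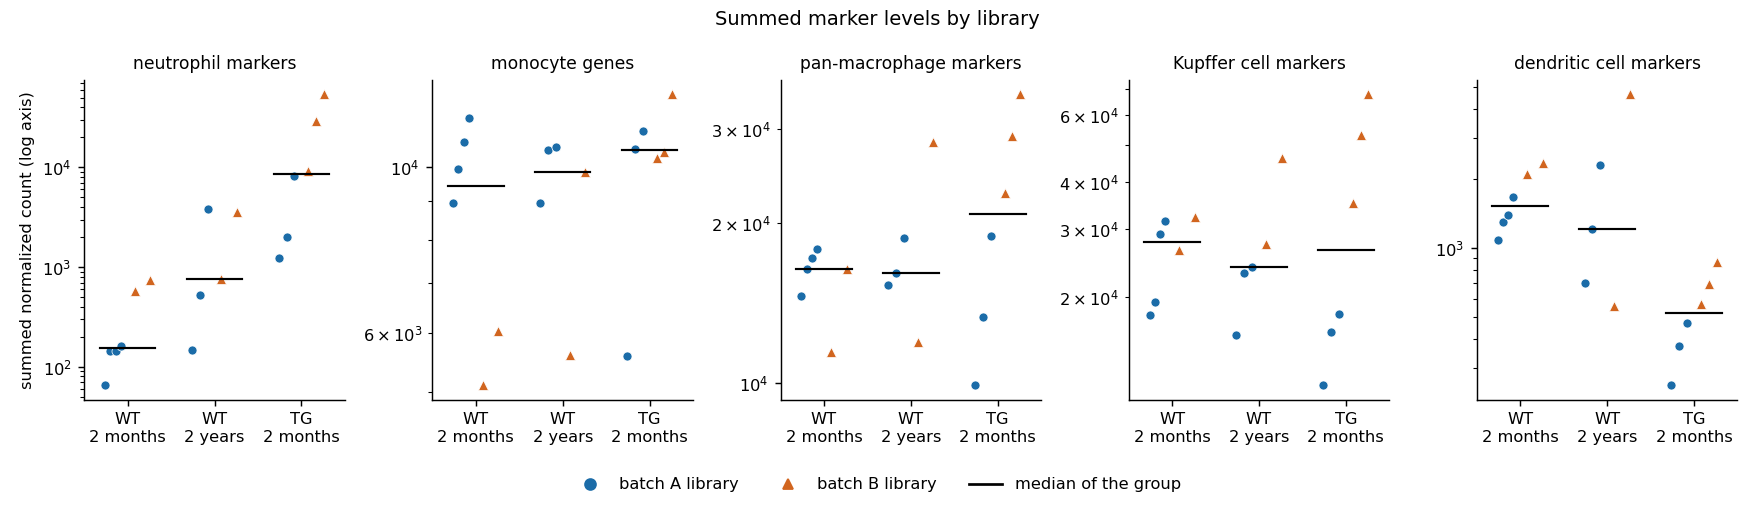
Summed normalized count of the marker lists of 5 cell types in every library, on log axes, by group; circles are batch A, triangles batch B, and the bar is the group's median. Neutrophil sums of the transgenic livers (1230 to 54072) lie above all young wild-type sums (65.2 to 734), and sums of the dendritic cell list in the transgenic livers (253 to 868), in which the MHC class II gene H2-Ab1 has the highest median, lie below all of its young wild-type sums (1087 to 2338).

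Monocyte and macrophage lists behaved otherwise. Of 20 monocyte genes 2 rose with the transgene, F13a1 (3.24 ± 0.71, adjusted p = 0.0105, limma), the transglutaminase of monocytes and macrophages, and Cd14 (1.54 ± 0.43, adjusted p = 0.0425, limma), a co-receptor for bacterial lipopolysaccharide. The median of the list was 0.30, made of -0.41 within batch A and 1.42 within batch B. Of 12 pan-macrophage markers 0 were called (median 0.27, -0.37 in A and 1.38 in B), and their summed level overlapped, 11401 to 17846 in young wild type and 9887 to 34878 in transgenic livers. In batch B alone it did not overlap, 11401 and 16369 against 22712 to 34878.
Among 11 markers of Kupffer cells, Marco, a scavenger receptor, rose by 3.97 ± 0.41 and C6, a complement gene that hepatocytes also express, fell by 3.46. The median was 0.17, with -0.49 in batch A and 0.96 in batch B. Csf1r, the receptor for the macrophage growth factor, was called in the test of the batch difference (2.20 ± 0.36, adjusted p = 0.0228, limma), as was Axl of the lipid-associated list (2.76 ± 0.49, adjusted p = 0.0293, limma) and Itgal, the CD11a chain (2.45 ± 0.50, adjusted p = 0.0414, limma). Kit and sequencing site differed together between the batches and cannot be told apart. Batch B was all male, while batch A held males of each group and all of the females. Among the batch A males Ly6c2 was at 16.4 and 13.3 in young wild type and 13.01 and 7.65 in transgenic livers. Itgax was at 34.9 and 24.6 against 6.71 and 6.77 in the same libraries. The difference between batches was not tested in males alone.
Of 8 dendritic cell markers 1 fell with the transgene, the MHC class II gene H2-Ab1 (-2.65 ± 0.48, adjusted p = 0.00272, limma), and Ccr7 was at -2.22 ± 0.67 (adjusted p = 0.0572, limma). H2-Ab1, which B cells and macrophages also express, was the most abundant of the list, with a median of 1167 normalized counts in young wild-type and 212 in transgenic livers beside median sums of 1525 and 521. The medians of Zbtb46 (116 and 97.9), Clec9a (59.3 and 64.6), Batf3 (29.4 and 35.4) and Flt3 (11.1 and 11.7), over both batches together, were near each other in the 2 groups. Within batches the log2 fold changes were -2.13 in A and 1.41 in B for Flt3, and -0.63 and -0.09 for Batf3. Those of Zbtb46 were 0.05 and -0.46, and those of Clec9a -0.10 and 0.52. The other 5, at low levels, had lower medians in transgenic livers, for example Xcr1 (18.6 and 6.35) and Cd209a (13.1 and 2.57), so the genes of the list did not all differ like its sum. Like Itgax, the list had a lower median in batch A (-2.06) than in batch B (-0.01), over 8 genes, and the part of dendritic cells in the Itgax values was not tested.

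**Figure D4:**
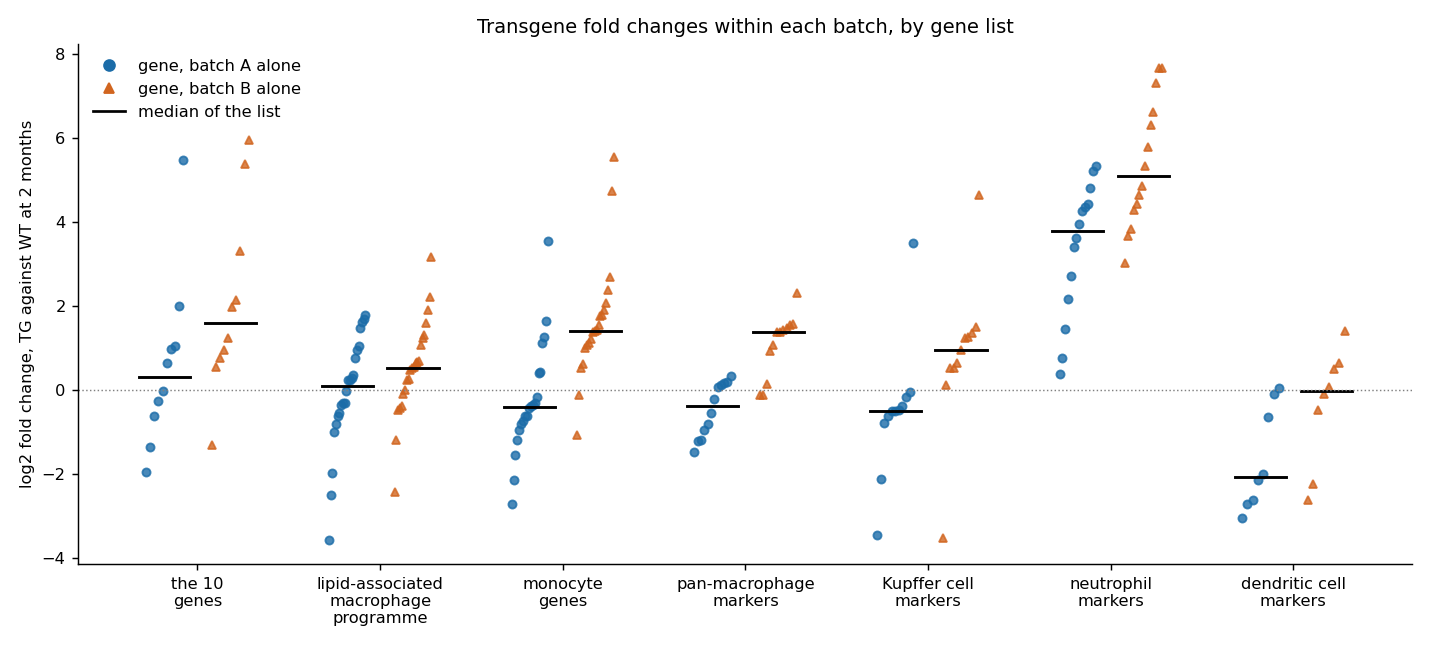
Transgene log2 fold change of each gene of 7 lists in batch A alone (circles) and batch B alone (triangles), with the list's median as a bar. The medians of monocyte genes (-0.41 and 1.42), pan-macrophage markers (-0.37 and 1.38) and Kupffer cell markers (-0.49 and 0.96) lie on opposite sides of 0 in the 2 batches, and those of neutrophil markers (3.78 and 5.10) on the same side.

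The tissue markers matched the label: all 7 hepatocyte markers in the table had values above 0 in every library, and 0 of them were called with age or the transgene. Platelet, NK cell, sinusoidal endothelial, stellate and B cell lists gave 0, 0, 1, 1 and 1 calls with the transgene, which were Stab2 (1.44 ± 0.27), Col1a1 (-1.88 ± 0.46) and Ighm (1.93 ± 0.41). With age Ighm, the IgM heavy chain, rose by 3.27 ± 0.42 (adjusted p = 0.00660, limma), the only call among those 5 lists.

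The 10 genes did not vary as 1 unit between libraries. After removal of group, batch and sex, Ly6c2 went with Itgax (residual r 0.84), Itgam (0.79) and Lyz2 (0.79), and Itgam with Itgax (0.63). Batch was removed only as a shift common to all groups. Transgene differences that were unlike between the batches, as for Ly6c2, Itgax and Lyz2, therefore remain in these residuals and enter their correlations. Gpnmb went with Cd9 (0.75) and against Spp1 (-0.58), and Trem2 went with Lyz2 (0.65) and against Gpnmb (-0.37). Chil3 was nearest to Itgam (0.55), and its residual r was -0.09 with Trem2 and -0.04 with Itgax. None of these correlations was tested.
Outside the 10, the closest genes to Trem2 were Taf6l (0.89), the complement gene C1qa (0.89) and Tcirg1 (0.87), and those to Lyz2 were Lgals3 (0.95), Tyrobp (0.93), which encodes the TREM2 adaptor, and Vav1 (0.92). Itgax was closest to Laptm5 (0.92), Myo1g (0.92) and Sash3 (0.91), and Ly6c2 to Vsir (0.95), Napsa (0.91) and Spn (0.91). Itgam was closest to F13a1 (0.88), Unc13d (0.86) and Map3k8 (0.86). Gpnmb was closest to Ccdc66 (0.91), Adamts7 (0.88) and Ddx59 (0.87), and Cd9 to Pnpla6 (0.86), Gskip (0.86) and Mapk1ip1 (0.82). Spp1 was closest to Gpank1 (0.90), Cisd2 (0.89) and Gm21967 (0.88), and Mmp12 to Tmem26 (0.77), Gm15910 (0.74) and Pfn2 (0.73). All of these are over 17 libraries and 14588 genes, where the top of so many correlations is high by selection.

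The authors' deposited transgene table gave the same directions for all 10 genes and called 6 of them among 2211 of 15714 genes. Beside Chil3 (log2 fold change 6.08), Itgam (2.08) and Spp1 (-1.35), it called Gpnmb (2.23, adjusted p = 0.000278), Trem2 (1.16, adjusted p = 0.0251) and Cd9 (0.73, adjusted p = 0.0207). Its estimate for Ly6c2 was 2.00 (adjusted p = 0.142), and Itgax, Lyz2 and Mmp12 were not called either.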

How the data were processed

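Polyadenylated liver RNA of 17 libraries was measured. The tools were STAR 2.5.3a, Salmon 0.6.0 and DESeq2 on mm10, per the submitters' processing notes. Annotation and strand setting are not given in the sources used here. Deposited by the authors was a table of normalized signal, named as DESeq2 normalized counts, which cannot be turned back into whole reads. Per the file headers, 2 deposited comparison tables hold the authors' log2 fold changes, a test score and p-values.

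The members and gene lists were chosen with earlier results of these data known. limma 3.58.1 in R 4.3.3 was fitted to log2(value + 1) of 14588 genes with a mean of at least 10, with group, batch and sex as terms and a mean-variance trend, tested on simulated data first. "Called", "rose" and "fell" mean an adjusted p (Benjamini-Hochberg, two-sided) under 0.05. Fold changes on this scale understate those of low genes. Within-batch values come from fits of 1 batch, and batch differences from an interaction term. The second Itgam row got an exact permutation test. Symbols were matched to rows by name. Coordinates, exon lengths and 3′ UTRs are those of GENCODE M21, sequences those of RefSeq. Named genes are all 10 members, their near copies, the called genes of each list (at most 6 by smallest p, or the 2 smallest p where fewer were called) and the 3 genes of highest residual correlation. Other scalings, filters, pseudocounts, weights, subsets and left-out libraries were tried. Python 3.11.15 and pandas 2.3.3 were used for levels.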

Additional observations from a re-analysis of the deposited data

Results flagged for a closer look

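Single libraries stood apart from the rest of their group in 3 of 30 combinations of member and group, where chance gives about 1 in 20. Gpnmb was at 188 normalized counts in aged wild-type library 4, while the next highest aged library had 19.0. In young wild type the lowest Gpnmb value was 3.55, in library 5, and the next lowest 7.68. Ly6c2 was at 1.3 in young wild-type library 6, and the next lowest young library had 13.3. All 3 libraries belong to batch B.

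Of 20 tests of a batch difference over the 10 genes, 1 passed. The transgene difference of Ly6c2 was larger in batch B than in batch A by 5.97 on the log2 scale (SE 1.17, adjusted p = 0.0414, limma), and the low value of library 6 is 1 of the 2 batch B controls behind it.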

How the results depend on the processing

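With the transgene, members called numbered 3, and 1 with no filter or with library weights, 6 in the authors' deposited table, and 1 to 5 without each library. Transgenic against aged, members called went from 1 to 0 with no filter, with males only, in batch B only or with only the 2 groups compared, and were 0 to 1 without each library. In batch A only the count stayed 1, but the gene was Itgax (-1.997, adjusted p = 0.0406, limma) in place of Chil3. With age they were 0, but 1 with library weights (Trem2) and 2 in the authors' table, and 0 to 0 without each library. For the transgene difference between batches, the count of 1 became 0 at a mean of at least 50 or with quantile normalization, and was 0 to 1 without each library. For the age difference between batches, 0 became 1 with no filter, and the count was 0 to 1 without each library (1 without aged library 3 or 5 or transgenic library 3, 4 or 6).
Genes called with the transgene numbered 979, and 495 in batch A, 263 in batch B, 2211 in the authors' table and 653 to 1311 without each library. With age there were 21, and 9 at a mean of at least 50 or with group and batch only, 11 with the replicate block, 41 in males, 1 in batch A, 0 in batch B, 10 with only 2 groups, 60 with library weights, 280 in the authors' table and 9 to 37 without each library. Transgenic against aged there were 372, and 247 with the replicate block, 175 in males, 175 in batch A, 45 in batch B, 120 with only 2 groups, 733 with library weights and 161 to 525 without each library.
Signs turned only in comparisons where the member was not called. With the transgene Mmp12 became 0.16 with the replicate block and 0.54 in batch B, and ran from -0.36 to 0.23 without each library (above 0 without young library 1 or transgenic library 1 or 4). Itgax became 0.95 in batch B, and Ly6c2 -0.024 and Lyz2 -0.25 in batch A. With age Spp1 became 0.027 in batch A. Transgenic against aged, males only gave Gpnmb -0.31, Spp1 0.18 and Cd9 -0.13, batch B -0.88, 0.81 and -0.37 for these, and batch A Ly6c2 -0.71 and Lyz2 -0.89. Lyz2 was -0.0066 with the replicate block and ran from -0.21 to 0.32 without each library (under 0 without aged library 1 or 4 or transgenic library 5 or 6), and Cd9 from -0.064 to 0.39 (under 0 without aged library 2 or 5). The cause of these shifts was not tested, and batch fits hold fewer samples.
With the replicate block Trem2 was called with the transgene (1.28, adjusted p = 0.0406, limma) and Spp1 was not (-1.18). Replicate numbers do not pair the samples: residuals of same-numbered libraries had a median correlation of -0.04 over 16 pairs (-0.32 to 0.38), against 0.02 for other pairs. Depth is unknown, so no detection limit can be given.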
